A study of Homo sapiens with 13 samples.

Results

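The genes described here are 10 imprinted genes from 6 chromosomal regions: *DLK1*, *MEG3* and *MEG8* of the DLK1-DIO3 locus, *H19* of the H19-IGF2 domain, *PEG3*, the neighbours *PEG10* and *SGCE*, *MEST*, and *SNRPN* and *NDN* of the Prader-Willi region. They were chosen by symbol, and all 10 were found among the 56831 rows of each expression table. RNA-seq was performed in H82 and H146, established human small cell lung cancer (SCLC) lines whose genotype is labelled WT. Each line was left untreated (3 libraries per line) or was exposed to 100 nM FHD-286 for 14 days with the drug renewed every 48 h (3 libraries of H82 and 4 of H146). FHD-286 is an allosteric inhibitor of the ATPases SMARCA4 and SMARCA2, the motors of the SWI/SNF chromatin remodelling complex, and the question was which of these genes changed when that activity was blocked.

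An imprinted gene is transcribed mainly from the chromosome inherited from the father or mainly from that inherited from the mother. The choice is set by DNA methylation of CpG sites at an imprinting control region, laid down in the germ line and kept through cell division. One control region can govern several neighbouring genes, some paternally and some maternally expressed. Many imprinted genes act in fetal growth and in the nervous and endocrine systems, and several, *DLK1* among them, are known from neuroendocrine tumors. The data give the total RNA of a gene and do not tell its parental copies apart.

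On hg38 with the GENCODE 44 annotation, *DLK1* lies at chr14:100725705-100738224, followed on the same strand by the long non-coding RNAs *MEG3* (chr14:100779410-100861031) and *MEG8* (chr14:100894770-101038859). *H19*, also non-coding, lies at chr11:1995166-2004552 on the minus strand. The protein-coding genes *PEG3* (chr19:56810077-56840728, minus), *PEG10* (chr7:94656325-94669695, plus), *SGCE* (chr7:94524204-94656572, minus) and *MEST* (chr7:130486171-130506465, plus) follow. *NDN* (chr15:23685400-23687305, minus) and *SNRPN* (chr15:24823637-24978723, plus) share a region of chromosome 15. Reads over exons shared on the same strand cannot be assigned with certainty, whether or not strand was used in counting. For exons shared with an opposite-strand gene the assignment is also uncertain, since the strandedness of the counting was not stated. Exons of other genes cover 50.9% of the exonic bases of *PEG3* (the same-strand *ZIM2* and an opposite-strand RNA), 43.9% of *SNRPN* (among them *SNURF* and *SNHG14*, on the same strand) and 27.6% of *MEST* (*COPG2* and *MESTIT1*, on the opposite strand). For *PEG10* and *SGCE*, whose first exons meet head to head, the shares were 3.27% and 1.05%. *DLK1* and *NDN* shared no exonic base with another gene.

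A promoter entry of RefSeq (GRCh38.p14) was matched for 5 of the 10 genes (*MEG3*, *H19*, *MEST*, *SNRPN* and *NDN*). Bases before the start are shown for the 3 coding genes among them, because *NDN* and *SNRPN* moved apart within the same imprinted region in H82 and *MEST* fell several-fold in H146. Capitals mark CpG dinucleotides, the site of imprint methylation. Each stretch runs 5′ to 3′ on the gene's strand and leaves out bases annotated as UTR.
NDN, chr15:23687306-23687555, minus strand: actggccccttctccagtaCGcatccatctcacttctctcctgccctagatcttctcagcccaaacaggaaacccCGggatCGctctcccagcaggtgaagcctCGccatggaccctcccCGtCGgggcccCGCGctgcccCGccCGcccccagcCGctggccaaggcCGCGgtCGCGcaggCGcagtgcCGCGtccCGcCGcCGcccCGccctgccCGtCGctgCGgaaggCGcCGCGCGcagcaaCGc
SNRPN (start shared with SNURF), chr15:24954737-24954934, plus strand: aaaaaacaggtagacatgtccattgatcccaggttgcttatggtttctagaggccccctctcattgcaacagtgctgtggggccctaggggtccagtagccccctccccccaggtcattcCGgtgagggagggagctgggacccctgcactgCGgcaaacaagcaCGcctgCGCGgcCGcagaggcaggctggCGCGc
MEST, chr7:130491808-130492057, plus strand: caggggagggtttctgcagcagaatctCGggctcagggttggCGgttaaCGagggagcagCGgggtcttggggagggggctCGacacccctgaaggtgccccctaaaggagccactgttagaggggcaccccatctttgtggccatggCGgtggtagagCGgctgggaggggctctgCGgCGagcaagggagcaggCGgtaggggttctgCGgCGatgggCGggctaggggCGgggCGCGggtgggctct
The *NDN* window of 300 bases (250 before to 50 after the start) held 35 CpG, more than 85.9% of the 35116 RefSeq windows of that length, whose median was 14. The *SNRPN* window of the start shown held 18 CpG and the *MEST* window 22, above 55.5% and 62.3% of all windows. *MEST* has 5 annotated starts, with 13 to 25 CpG, *SNRPN* has 4 with 2 to 18, the 3 of *MEG3* held 17 to 19, and the *H19* window held 6. Windows were also searched on both strands for short motifs that do not overlap each other. The core of the YY1 motif, CCATNTT, was found in 4 of 5 *MEST* windows and 1 of 4 *SNRPN* windows, beside 15.6% of all windows. The 4 windows of *MEST* are 2 overlapping pairs, and overlapping windows can hold the same site, so the count of windows is not a count of sites. The E-box CAGCTG was found in 1 window each of *MEST* and *SNRPN*, beside 17.9% of all windows searched. The E-box form with the letters CAGATG was found in 1 window each of *SNRPN* and *H19*, beside 14.7% of all. The *NDN* window and the 3 windows of *MEG3* held none of these letters.

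The tables hold TPM (reads per gene length, scaled to the same sum in each library), and the read depth is unknown. In H82, 21227 to 21772 genes reached 1 TPM per untreated library and 15554 to 16633 per treated one, while mitochondrial genes held 22.1% to 24.1% and 12.3% to 14.9% of the TPM. In H146 the numbers were 17476 to 17965 and 18778 to 19309 genes, and 7.56% to 8.86% and 3.82% to 11.4%. The part of these shifts in the results was not tested. All 7 neuroendocrine markers reached a mean of 1 TPM in H82 and 6 of 7 in H146 (*NEUROD1* did not). With limma on log2(TPM + 1) and an adjusted p under 0.05, 58.6% of 19770 tested genes changed in H82 (45.5% lower, 13.1% higher) and 47.9% of 19585 in H146 (15.5% lower, 32.5% higher). Over all these genes the log2 fold change had a median of -0.56 in H82 and of 0.25 in H146. Scaling by the median of ratios brought it to -0.14 and -0.02, and the shares to 32.9% lower and 24.2% higher in H82 and 25.1% lower and 21.3% higher in H146. Treated replicate 2 of H82 stood apart from its group. Of 45 genes at 50 TPM or more in every untreated H146 library and under 0.1 TPM in every untreated H82 library, 20 reached 1 TPM in it, with a sum of 299 TPM. The sum was 47.3 and 21.2 TPM in treated replicates 1 and 3 and 0.526 to 0.709 TPM in the untreated libraries. Results of H82 that rest on this library are given with and without it.

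With FHD-286, *NDN* was higher in both lines, and *DLK1* and *MEST* were lower and *PEG10* higher in H146. *SNRPN* was lower in H82, a call lost with quantile normalization. These are bulk libraries, in which fewer expressing cells and less RNA per cell cannot be told apart. Of the 5 members that passed the filter of 1 TPM in 3 libraries in H82, 1 was lower, 1 was higher and 3 did not pass the test. Of the 6 that passed it in H146, 2 were lower, 2 were higher and 2 did not pass the test. The share called among these members (2 of 5 and 4 of 6) stood beside 58.6% and 47.9% of all tested genes. Over all 10 members, treated and untreated libraries did not overlap for 6 in H82 and 4 in H146. Those that had passed the filter were *MEST*, *SNRPN* and *NDN* of the 5 in H82. In H146 they were *DLK1*, *PEG10*, *MEST* and *NDN* of the 6. Over all genes that passed the filter the shares without overlap were 67.8% and 52.9%. *MEG3*, *H19* and *PEG3* in H82 were below the filter and have no such share beside them.

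**Figure D1:**
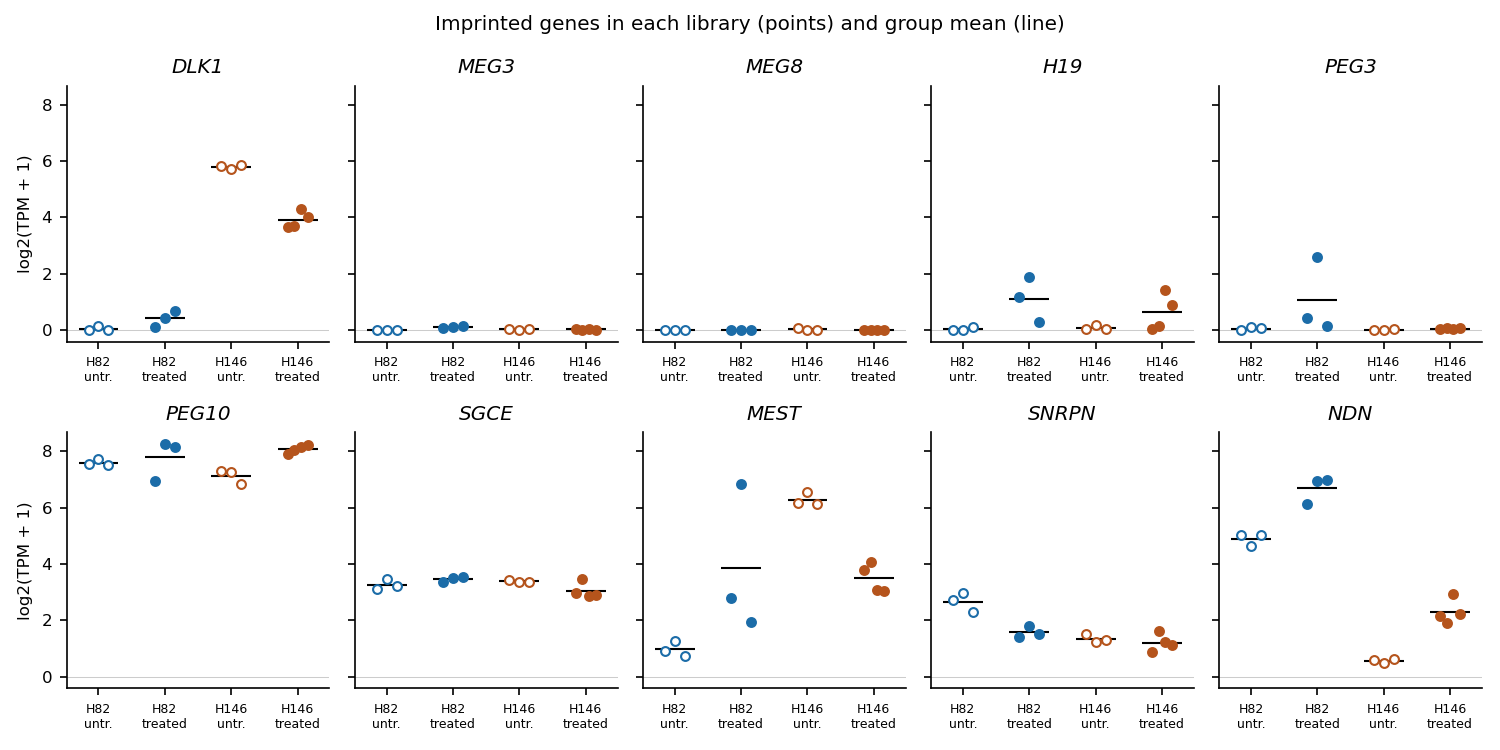
Level of each member, log2(TPM + 1), in the 13 libraries (open points, untreated; filled points, FHD-286; blue, H82; brown, H146; line, group mean). *NDN* was higher in each treated library than in any untreated library of its line, and *DLK1* and *MEST* were lower in each treated H146 library than in any untreated one.

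*NDN* encodes necdin, a MAGE family protein of postmitotic neurons that restrains cell growth and is expressed from the paternal copy. Its level in H82 was 31.4, 24.2 and 31.5 TPM without drug and 68.9, 121 and 126 TPM with it. The 2 sets of libraries did not overlap, and treated replicate 1 was the lowest of its group. The mean went from 29.0 ± 4.19 (SD, n = 3) to 106 ± 31.8 TPM (n = 3), a log2 fold change of 1.79 (SE 0.26, adjusted p = 0.00125, limma). In H146 *NDN* was near the floor of the table without drug, at 0.5, 0.397 and 0.543 TPM, and reached 3.41, 2.70, 6.61 and 3.68 TPM with it. Every treated library was above every untreated one here too. The mean rose 8.55-fold, from 0.480 ± 0.0746 (n = 3) to 4.10 ± 1.72 TPM (n = 4), and the log2 fold change was 1.73 (SE 0.25, adjusted p = 0.000988). The ratio of means was 3.64 in H82, where treated replicate 2 did not decide it (3.37 without that library). On the log2(TPM + 1) scale, which understates the change of a low gene, the 2 lines differed by -0.06 (95% CI -0.87 to 0.76, adjusted p = 0.907), so no difference between them was detectable within this interval. Treated H146 still held less *NDN* than untreated H82.

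*SNRPN* encodes SmN, a core protein of the spliceosome in neurons, and its first exons also carry the *SNURF* reading frame. In H82 it stood at 5.61, 6.83 and 3.96 TPM without drug and at 1.68, 2.44 and 1.87 TPM with it. All 3 treated libraries were lower than all 3 untreated ones. The log2 fold change was -1.09 (SE 0.24, adjusted p = 0.00693), beside a median of -0.56 over all genes. With quantile normalization it was -0.12 (adjusted p = 0.723), so the call depended on the scaling. In H146, where 1.84, 1.35 and 1.46 TPM without drug stood beside 0.836, 2.06, 1.32 and 1.17 TPM with it, the groups overlapped. The log2 fold change there was -0.14 (95% CI -0.63 to 0.35, adjusted p = 0.615).

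The rest of the 15q11 region was set beside these genes from a fixed list of 11 genes, of which *IPW* was not analysed here. Of 7 genes tested in H82, 5 were lower and *NDN* alone was higher, beside 45.5% and 13.1% of all genes. Of 5 tested in H146, 4 were higher and none lower, beside 32.5% and 15.5% of all genes. With quantile normalization 3 of 7 were lower in H82, beside 5547 of all 19770 tested genes. *SNRPN* and *SNURF* (adjusted p = 0.121) had lost the call. *MKRN3*, which encodes a ring finger protein that restrains puberty, fell from 20 to 8.13 TPM in H82 (log2 fold change -1.23, adjusted p = 0.00173) and rose from 8.26 to 16.6 TPM in H146 (0.93, adjusted p = 0.00136). *SNHG14*, the long transcript that hosts the region's small nucleolar RNAs, fell from 14.8 to 5.95 TPM in H82 (-1.18, adjusted p = 0.00191) and rose from 1.39 to 6.64 TPM in H146 (1.63, adjusted p = 0.00171). *UBE3A*, the ubiquitin ligase lost in Angelman syndrome, fell from 48.5 to 30.1 TPM in H82 (-0.70, adjusted p = 0.0304) and rose from 14.6 to 24.8 TPM in H146 (0.73, adjusted p = 0.00188). The fall of *UBE3A* did not pass the test with the median of ratios (adjusted p = 0.368). *SNURF* fell with *SNRPN* in H82, from 4.98 to 0.972 TPM (-1.62, adjusted p = 0.00222), and was below the filter in H146. Since *SNRPN* shares same-strand exons with *SNURF* and *SNHG14*, these genes are not independent entries in the counts of the region. *MAGEL2*, the closest relative of *NDN* in the region, had 2.54 TPM untreated and 1.98 TPM treated in H82 (-0.33, adjusted p = 0.405).

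Log2 ratios within a library were taken after 1 was added to the TPM of both genes, which shrinks them where a gene is low. Within single H82 libraries, the log2 ratio of *SNRPN* to *NDN* was -2.23 ± 0.52 (SD, n = 3) untreated and -5.11 ± 0.39 (n = 3) treated. That of *NDN* to *MAGEL2* was 3.08 ± 0.08 and 5.20 ± 1.09. Neither pair of groups overlapped, and both gave the smallest p that 3 against 3 libraries allow (two-sided exact permutation test, p = 0.1; adjusted over 5 ratios, 0.125). In H146 the log2 ratio of *SNRPN* to *NDN* on this scale moved by -1.87 (exact permutation p = 0.0571, adjusted p = 0.125). With *NDN* at a mean of 0.480 TPM untreated, the added 1 understates the move of the plain TPM ratio.

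**Figure D2:**
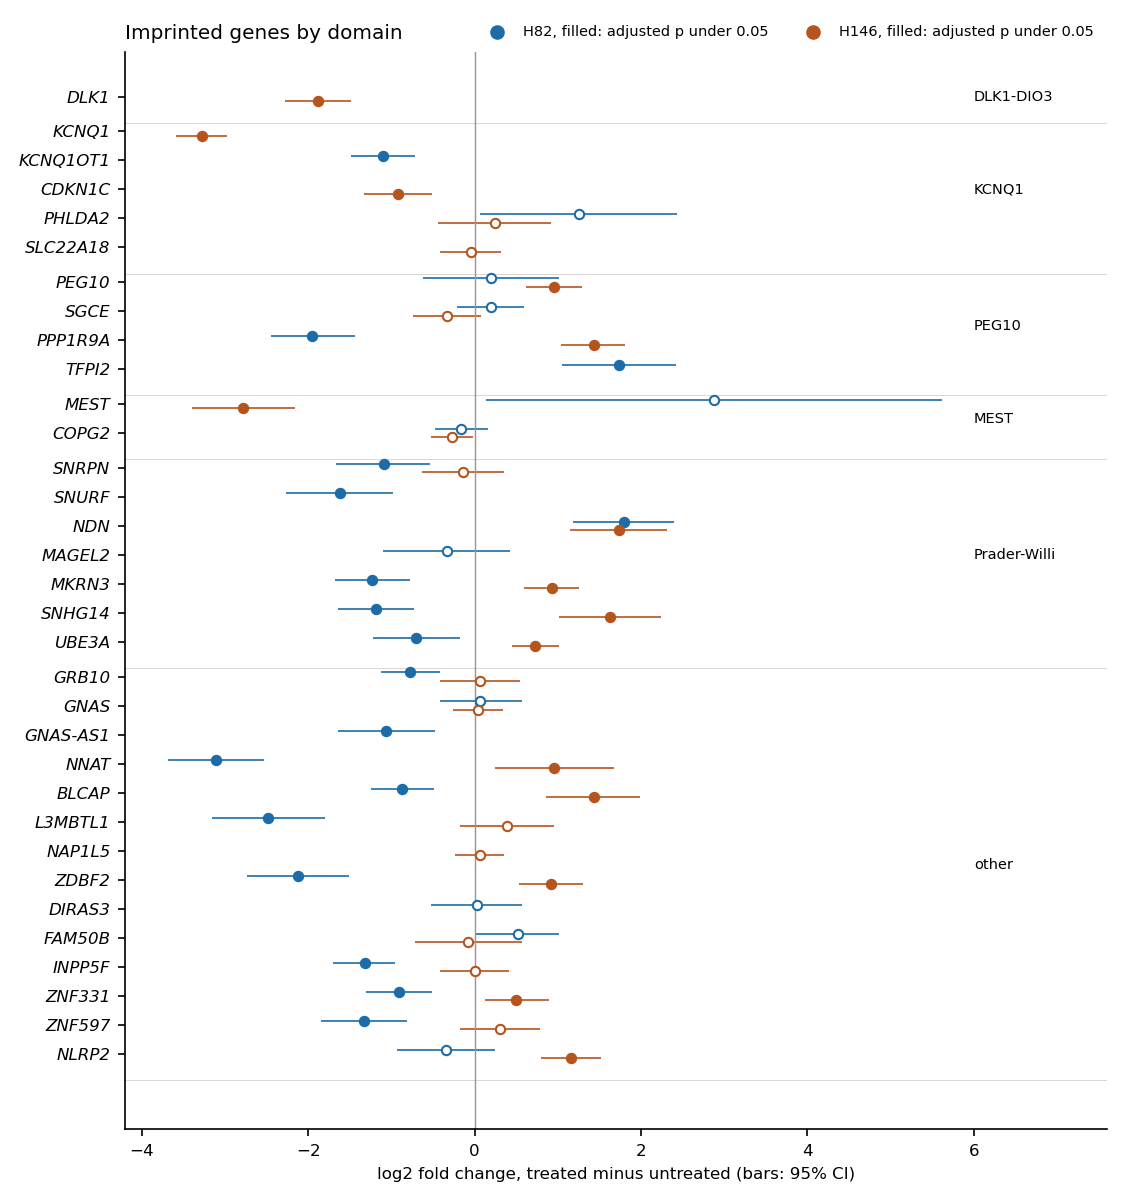
Log2 fold change (treated minus untreated) with its 95% confidence interval for each imprinted gene tested in H82 (blue) or H146 (brown), ordered by domain; filled points have an adjusted p under 0.05 in limma. In the Prader-Willi group *MKRN3*, *SNHG14* and *UBE3A* lie left of 0 in H82 and right of 0 in H146, and *NDN* lies right of 0 in both.

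*MEST*, a paternally expressed gene for a membrane enzyme of the hydrolase fold, fell in H146. Its level was 70.0, 92.5 and 69.4 TPM without drug and 12.7, 15.9, 7.52 and 7.20 TPM with it. No treated library came near an untreated one. The mean went from 77.3 ± 13.2 (SD, n = 3) to 10.8 ± 4.23 TPM (n = 4), a ratio of 0.140 and a log2 fold change of -2.78 (SE 0.27, adjusted p = 0.000148). In H82, by contrast, the untreated libraries held 0.880, 1.41 and 0.683 TPM and the treated ones 6.01, 113 and 2.82 TPM. All 3 treated libraries were above all 3 untreated ones, but replicate 2 was far above the others and also above every H146 library. The log2 fold change was 2.88 (SE 1.16, 95% CI 0.14 to 5.62), which did not pass the test (adjusted p = 0.0678). Without treated replicate 2 it was 1.39 (adjusted p = 0.0163), with a 4.46-fold ratio of means in place of 40.9-fold. The difference between the lines (interaction fit, which called 59.3% of all genes) was -5.66 (SE 1.23, adjusted p = 0.00182) and, without that library, -4.18 (adjusted p = 3.22e-05). *COPG2*, the coat protein gene that overlaps *MEST* on the opposite strand, had log2 fold changes of -0.16 (adjusted p = 0.338) in H82 and -0.27 (adjusted p = 0.075) in H146, the latter passing the test with the median of ratios (-0.58, adjusted p = 0.00301).

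*PEG3*, a paternally expressed zinc finger gene, stood at 0, 0.0839 and 0.0441 TPM in untreated H82 and at 0.348, 5.07 and 0.0962 TPM in treated H82. Treated replicate 2 again held nearly all of the signal. The difference in mean log2(TPM + 1) was 1.0 with that library and 0.22 without it (two-sided exact permutation test, p = 0.1 in both cases, the smallest possible with all libraries). In H146 no library passed 0.0647 TPM. *PEG3* was thus higher in treated replicate 2 of H82 than in any H146 library, whereas *DLK1*, at 51.4 TPM or more in untreated H146, was at 0.366 TPM in that library. Whether another state or source of the cells bears on *MEST* and *PEG3* in this library was not tested. Fibroblast markers (4 genes) summed to 0.703 to 1.57 TPM in untreated and 4.65 to 24.9 TPM in treated H82 (0 and 3 of the 4 at a mean of 1 TPM, with *COL3A1* at 0 in all untreated libraries), and to 4.27 to 5.38 and 8.29 to 20.2 TPM in H146; their part in these results was not tested. Treated replicate 2 had the lowest sum of the treated H82 libraries (4.65 TPM, with *COL1A1* at 0.141 TPM beside 4.95 and 16.7 TPM in replicates 1 and 3). *COL3A1* was also lowest in it, at 0.0611 TPM. *DCN* and *LUM*, at 1.31 and 3.14 TPM, were not below replicate 1, which held 1.27 and 3.14 TPM.

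**Figure D3:**
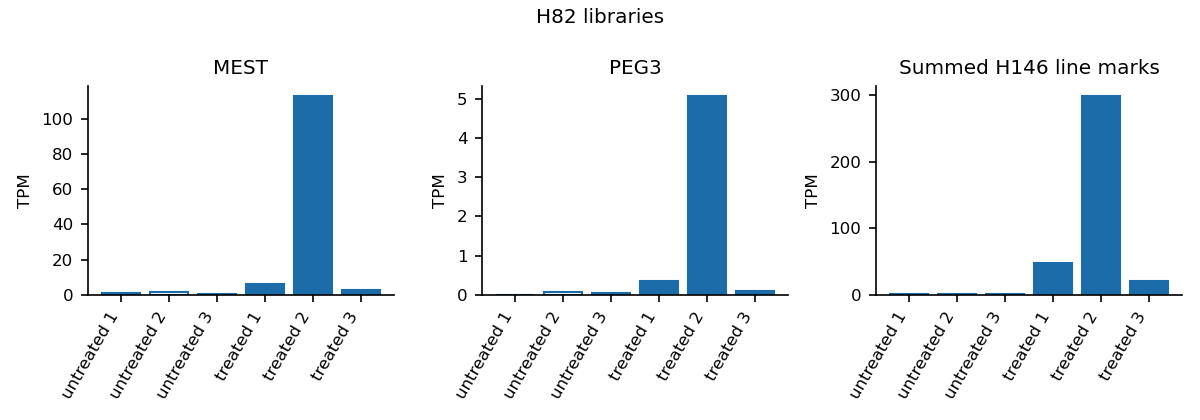
TPM of *MEST*, of *PEG3* and of the summed 45 genes marking untreated H146, in each of the 6 H82 libraries (bars; open, untreated; filled, treated). Treated replicate 2 is the highest in all 3 panels, with 113, 5.07 and 299 TPM.

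*DLK1*, a membrane and secreted protein of the Notch ligand family that lacks the domain used to activate Notch receptors, was expressed in H146. The untreated libraries held 55.5, 51.4 and 57.1 TPM and the treated ones 11.6, 12.1, 18.8 and 15.1 TPM. The groups were far apart, with a small spread in each. The mean fell from 54.7 ± 2.95 (SD, n = 3) to 14.4 ± 3.33 TPM (n = 4), a ratio of 0.263 and a log2 fold change of -1.88 (SE 0.17, adjusted p = 0.000118). In the ranking of tested H146 genes by level, *DLK1* moved from above 83.8% of genes to above 54.9%. In H82 the gene was near 0, with 0, 0.0976 and 0 TPM untreated and 0.0900, 0.366 and 0.6 TPM treated (exact permutation p = 0.2). At such a level a fall could not have been seen in H82, so the responses of the lines are not compared for this gene.

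The non-coding RNAs of the same locus, which are expressed from the maternal copy, were close to 0 in both lines, also where *DLK1* was high. *MEG3* was at 0.00826 TPM or less in untreated H82 and at 0.0463, 0.0837 and 0.0989 TPM in treated H82 (exact permutation p = 0.1). In H146 its 7 libraries ran from 0.00431 to 0.0379 TPM, with overlapping groups. *MEG8* did not pass 0.0126 TPM in H82 or 0.0439 TPM in H146. *MEG9*, another RNA of the locus, chosen after its values were seen, was below the filter and had 0.481, 0.299 and 0.462 TPM in untreated H146 and 0.0332 to 0.0684 TPM in the 4 treated libraries. Other genes of the locus, also below the filter, went the other way without overlap in the same line. They were *RTL1* (0 to 0.046 TPM untreated, 0.0524 to 0.203 TPM treated) and *DIO3OS* (0 to 0.0172 and 0.0191 to 0.0392 TPM). Of the 7 genes listed for the locus, only *DLK1* passed the filter, and only in H146.

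*H19*, the maternally expressed RNA that shares its control region with *IGF2*, was also low. In H82 it was at 0, 0 and 0.0707 TPM untreated and at 1.24, 2.68 and 0.220 TPM treated. The groups did not overlap, and replicate 2 was again the highest; the difference in mean log2(TPM + 1) was 1.08 with it and 0.69 without it (exact permutation p = 0.1 in both cases). In H146 the untreated libraries held 0.0333, 0.132 and 0.0301 TPM and the treated ones 0.0379, 0.110, 1.67 and 0.864 TPM. Treated replicates 3 and 4 carried the signal there, and the groups overlapped (difference 0.54, exact permutation p = 0.286). Over the 9 tests of members below the filter, no adjusted p was under 0.225. The mean of *IGF2* did not pass 0.321 TPM in any group.

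*PEG10*, a paternally expressed gene derived from a retrotransposon whose protein still forms capsids, was the most abundant of the 10 genes in each group mean. In H146 its level was 156, 151 and 112 TPM untreated and 236, 265, 285 and 295 TPM treated. All treated libraries were above all untreated ones. The mean rose from 140 ± 23.9 (SD, n = 3) to 270 ± 26.3 TPM (n = 4), with a log2 fold change of 0.96 (SE 0.15, adjusted p = 0.00129), or 0.64 with the median of ratios (adjusted p = 0.00383). In H82 the untreated libraries held 184, 209 and 183 TPM and the treated ones 122, 304 and 286 TPM. Replicate 1 lay below the untreated libraries and the other 2 above them. The log2 fold change was 0.20 (95% CI -0.62 to 1.01, adjusted p = 0.649), and it was 0.62 (adjusted p = 0.00127) without treated replicate 1. The difference between the lines (interaction fit) was 0.76 (95% CI -0.07 to 1.60, adjusted p = 0.106), which did not pass the test. That difference passed with quantile normalization (1.04, adjusted p = 0.00819) and without H82 treated replicate 2 (0.99, adjusted p = 0.0406), but was -0.05 with the median of ratios. As *PEG10* rose and *MEST* and *DLK1* fell in H146, its share of the summed TPM of the 10 genes went from between 44.9% and 53.1% to between 86.1% and 89.5%. In H82, where *NDN* rose and *MEST* was high in treated replicate 2, the share went from between 80.2% and 83.1% to between 54.4% and 66.7%.

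*SGCE*, which encodes a sarcoglycan of the cell surface and whose promoter faces that of *PEG10*, stood at 7.72, 9.97 and 8.31 TPM in untreated and 9.18, 10.4 and 10.5 TPM in treated H82. In H146 the values were 9.79, 9.18 and 9.28 TPM untreated and 6.87, 10.0, 6.28 and 6.43 TPM treated. Treated replicate 2 of H146 was above its group, and the groups overlapped in both lines. The log2 fold change was 0.20 in H82 (95% CI -0.21 to 0.60, adjusted p = 0.362) and -0.33 in H146 (95% CI -0.74 to 0.08, adjusted p = 0.16). With the median of ratios both passed the test, at 0.64 (adjusted p = 0.0135) and -0.62 (adjusted p = 0.0301). In each H146 library the log2 ratio of *PEG10* to *SGCE* was 3.46 to 3.90 untreated and 4.59 to 5.32 treated (difference 1.29, exact permutation p = 0.0286, the smallest possible; adjusted p = 0.125). In H82 the ratio was 4.26 to 4.41 untreated and 3.60 to 4.74 treated.

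The other tested genes of the domain moved more than *SGCE*. *PPP1R9A*, which encodes an actin-binding protein of neurons, fell from 17.5 to 3.87 TPM in H82 (-1.95, adjusted p = 0.000452) and rose from 1.49 to 5.66 TPM in H146 (1.43, adjusted p = 0.000368). *TFPI2*, a secreted protease inhibitor, rose from 7.34 to 26.6 TPM in H82 (1.74, adjusted p = 0.00224) and was below the filter in H146.

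**Figure D4:**
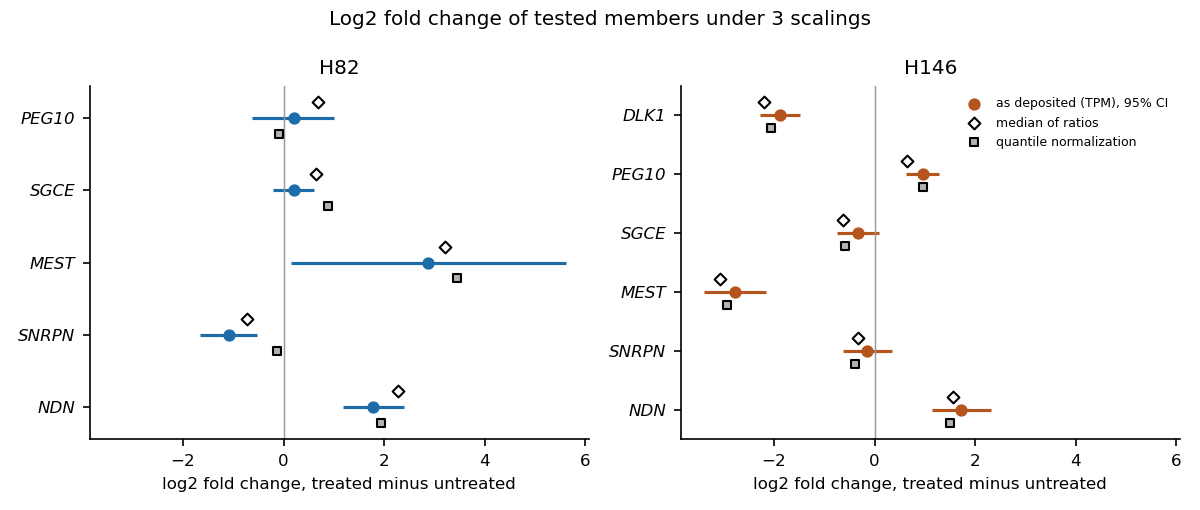
Log2 fold change (treated minus untreated) of the members that passed the filter in each line, with the 95% confidence interval on TPM as deposited (circles) and the value after scaling by the median of ratios (diamonds) or quantile normalization (squares). *NDN* in both lines and *DLK1*, *MEST* and *PEG10* in H146 stay on their side of 0 under each scaling, while *PEG10* changes side in H82.

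A fixed list of 55 imprinted genes, with 53 in the tables, included the 10 members, and its other genes gave them a background. Among these other genes, 15 of 23 tested were lower and 1 higher in H82 (median -0.91). For H146 the counts were 2 lower and 9 higher of 21 (median 0.30). With the members, 16 of the 28 tested in H82 were lower and 2 higher, with a median of -0.82 beside -0.56 for all genes. Over all genes 45.5% were lower and 13.1% higher in H82. In H146, with the members, 4 of 27 were lower and 11 higher, beside 15.5% and 32.5% of all genes. The median was 0.24 beside 0.25. With the median of ratios and the members included, the counts were 13 lower and 6 higher in H82 and 6 lower and 9 higher in H146. The shares of all genes were then 32.9% lower and 24.2% higher in H82, and 25.1% lower and 21.3% higher in H146. Of the 22 tested in both lines, 8 were lower in H82 and higher in H146 (*PPP1R9A*, *MKRN3*, *SNHG14*, *UBE3A*, *NNAT*, *BLCAP*, *ZDBF2* and *ZNF331*), beside 13.2% of all 15679 genes tested in both. Both calls were kept with the median of ratios by 5 of the 8. The share of all genes with both calls under that scaling was not taken, so these 5 have no background beside them. *NDN* was higher in both lines, a pattern held by 4.83% of all genes. No listed gene was lower in both, beside 4.43% of all genes.

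Outside the members' domains, the largest fall in H82 on the log2(TPM + 1) scale was that of *NNAT*, a proteolipid of developing neurons, from 16 to 1.01 TPM (log2 fold change -3.11, adjusted p = 0.000174). By the ratio of means the fall of *KCNQ1OT1*, from 1.25 to 0.0484 TPM, was larger (0.0386, beside 0.0633 for *NNAT*). In H146 it was that of *KCNQ1*, a potassium channel gene, from 43.7 to 3.62 TPM (-3.28, adjusted p = 2.9e-06). The largest rise among them in H146 was that of *BLCAP*, from 20.2 to 58.2 TPM (1.43, adjusted p = 0.00226), and in H82 none passed the test for a rise on TPM as deposited. After scaling some did, *FAM50B* (0.97, adjusted p = 0.00923), *GNAS* (0.56, adjusted p = 0.0345) and *PHLDA2* (1.48, adjusted p = 0.0434) with the median of ratios and *FAM50B*, *PHLDA2* and *DIRAS3* with quantile normalization.

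A further 12 factors that keep or remove DNA methylation were listed with them. In H82, 6 of the 11 tested were lower and none higher, with a median log2 fold change of -0.64, and in H146, 1 of 12 was lower and 7 higher, with a median of 0.62. Over all genes 45.5% were lower and 13.1% higher in H82, and 15.5% lower and 32.5% higher in H146, with medians of -0.56 and 0.25. With the median of ratios the counts were 4 lower and 1 higher in H82 and 2 lower and 5 higher in H146. Beside these stood 32.9% lower and 24.2% higher of all genes in H82, and 25.1% and 21.3% in H146. *TET3*, an enzyme that oxidizes 5-methylcytosine, fell most in H82, from 57.4 to 7.83 TPM (-2.75, adjusted p = 0.000152), and had the largest rise in H146 on the log2(TPM + 1) scale, from 9.53 to 24.6 TPM (1.25, adjusted p = 0.0064). By the ratio of means, *TET2* (2.71) and *TET1* (2.68) rose more than *TET3* (2.58). *DNMT3B*, a de novo methyltransferase, fell in H146 from 99.6 to 46.8 TPM (-1.08, adjusted p = 0.00327). *ZFP57*, the zinc finger protein that recognizes methylated imprinting control regions, was listed at 0 in all 6 H82 libraries and at 6.16 and 6.41 TPM on average in untreated and treated H146.

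Over all 13 libraries, the genes with the profile closest to that of a member were found by the root mean square (RMS) difference of log2(TPM + 1) after removal of each gene's own mean. *CCKBR* was the closest to *DLK1* (RMS difference 0.204, against an RMS of 2.35 for the profile of *DLK1* itself), followed by *FAM3B* and *PLA2G16*. For *NDN* they were *NRN1* (0.465, against 2.31), *EPDR1* and *CTSC*, and for *MEST* they were *TESC* (0.647, against 2.10), *SNAI2* and *DYNC1I1*. The profiles of *PEG10* (*KDM2B*, 0.140, then *PARP4* and *USB1*), *SGCE* (*COPB1*, 0.122, then *MEAF6* and *STXBP3*), *SNRPN* (*HOXA11-AS1*, 0.182, then *CYP3A5* and *ZNF670-ZNF695*) and *H19* (*CFAP77*, 0.241, then *TCF24* and *RP3-437C15.1*) varied less, with an RMS of 0.225 to 0.613 of their own. The points share 2 lines and 1 treatment, so these likenesses are a description.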

How the data were processed

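Total RNA of the 13 libraries was sequenced by a service provider. Per the study's methods, the authors used STAR on hg38 with GENCODE release 28 for mapping and gene counts, compared groups with DESeq2, and deposited 1 table of TPM per line. The submitters' processing notes also name Trim Galore 0.4.4. Each column sums to 1000000. How gene length was taken and whether strand was used in counting are not given in the sources used here. Read depth is unknown, so precision rests on the spread between libraries, which may be technical, since nothing says that replicates were separate cultures.

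Each line was fitted in R 4.3.3 with limma 3.58.1 (trend) on log2(TPM + 1), keeping genes that reached 1 TPM in 3 or more of its libraries. The two-sided p values were adjusted across every gene fitted (Benjamini-Hochberg), and genes under 0.05 were called. The difference between lines was the interaction in 1 fit over all 13 libraries. Members below the filter, and ratios within a library, were compared by exact permutation on log2 values, with 1 added to each TPM. Alternatives were a pseudocount of 0.1, no filter, 2 scalings, a replicate block and each library left out. The script was checked on simulated data. Members and lists were chosen with earlier results of these data known. The text names all members, the tested genes of their domains, the largest rise and fall elsewhere in each list, and the 3 nearest profiles per member. Positions come from GENCODE 44 and sequences from RefSeq. IGF2-AS and IPW were not analysed here.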

Additional observations from a re-analysis of the deposited data

Results flagged for a closer look

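The log2 fold change differed between the lines (H146 minus H82) past the threshold for 3 of the 7 members in the fit over all 13 libraries. Over all 24374 genes of that fit the share was 59.3%. For *DLK1* the value was -2.25, but the gene passed the filter through H146 alone and was near 0 in untreated H82, where no fall could be seen, so this is no comparison of responses. For *MEST* it was -5.66, with a fall in all 4 treated H146 libraries and higher values in all 3 treated H82 libraries. For *SNRPN* it was 0.96 (adjusted p = 0.0185), with a fall in H82 and overlapping groups in H146, and this difference did not pass the test with the median of ratios (0.42, adjusted p = 0.263). In treated H146, replicate 2 of *SGCE* (10.0 TPM, beside 6.28 to 6.87 TPM) lay apart from the others, with a gap of 0.843 of the group's range. Of 10 such groups of 4 libraries tested, 1 stood out in this way, and chance gives about 1 in 20.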

How the results depend on the processing

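The call and direction of *NDN* in both lines and of *DLK1*, *PEG10* and *MEST* in H146 held under every alternative run. The number of genes called in H82 over all genes was 11584, and 5967 to 13460 with each library left out, the lowest values coming with each untreated library removed (5967, 6127 and 6088). The replicate numbers do not pair the libraries (same-number correlations of deviations from the group means -0.0378 to 0.027 in H82 and -0.111 to 0.0108 in H146). With the replicate block, 10958 genes were called in H82 and 7100 in H146 (9389 without it), and *MEST* passed the test in H82 (adjusted p = 0.0235). *MEST* also passed in H82 with a pseudocount of 0.1 (adjusted p = 0.0489) and quantile normalization (0.0237). The cause of these changes was not tested.

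Values near 0 changed sign. In H146 the *MEG3* difference was -0.0047 after scaling by the median of ratios, -0.05 after quantile normalization and -0.01 to 0.01 with libraries left out. That of *MEG8* ran from -0.03 to 0.0014 with libraries left out, and that of *PEG3* was -0.01 after quantile normalization. *PEG10* in H82 had -0.09 after quantile normalization and -0.04 (without treated replicate 2) to 0.62 (without treated replicate 1) with libraries left out. In the difference between lines, *PEG10* had -0.05 by the median of ratios, *SNRPN* had -0.24 after quantile normalization, and *NDN* had 0.97 with a pseudocount of 0.1 (adjusted p = 0.0746) and -0.33 to 0.10 with libraries left out. The H82 ratio of *PEG10* to *SGCE* had -0.98 after quantile normalization and -0.21 to 0.37 with libraries left out.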
